A study of Mus musculus with 8 samples.

Results

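Messenger RNA of 42 contractile and SRF-MRTF actin genes was followed in mouse bone marrow mesenchymal stem cells, adherent stromal progenitors of the femur. The genes were chosen by symbol as actins, the proteins that bind and move along actin filaments, and the transcription factors that control them. They were chosen with earlier results of these data known, and all 42 were found among the 21899 genes of the table. There were 4 libraries of poly(A) RNA from cells given 10 µM ellagic acid (EA), a plant polyphenol, for 48 h, and 4 Control libraries from cells given the solvent DMSO for the same time. No genotype, strain or animal age is given in the sources used here, and whether the 4 libraries of a group stem from different mice or dishes is not stated. P-values therefore reflect library-to-library spread, which could be technical alone.

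Contractile cells pull on their surroundings by sliding bundles of myosin along actin filaments that are anchored to adhesions. The transcription factor SRF drives many of the genes for this machinery together with its partners MRTF-A and MRTF-B, which are held in the cytoplasm by actin monomers and move to the nucleus as monomers are built into filaments. In smooth muscle the related partner myocardin adds a further set of genes, and stromal cells that make smooth muscle actin without the late smooth muscle proteins are commonly called myofibroblasts.

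SRF binds a DNA motif called the CArG box. A match to its pattern on either strand is also a match on the other, although the letters can differ. The box was looked for in RefSeq promoter windows of build GRCm38.p6, which run from 250 bases before to 50 bases after a transcript start. Of 36 members with a window, 7 (19.4%) held at least 1 CArG box, against 488 of 27025 genes with a window (1.81%) and 150 of 9404 tested genes with one (1.60%). Actg2, Actb, Tagln, Myh11, Csrp2 and Myocd had no entry. The members were picked partly as genes of the SRF-MRTF pathway, so a higher share among them gives no independent support. The stretches are shown because SRF is known to bind this motif, and a match is a description of letters, not of binding. Capitals mark the CArG box, and each line reads 5′ to 3′ along the strand of the gene.
Actg1, chr11:120348556-120348605, minus strand: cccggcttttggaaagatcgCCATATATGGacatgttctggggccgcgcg
Cnn2, chr10:79988524-79988573, plus strand: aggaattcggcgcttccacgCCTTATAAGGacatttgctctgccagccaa
Myl9, chr2:156775283-156775332, plus strand: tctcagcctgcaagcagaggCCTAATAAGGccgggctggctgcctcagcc
Myl6, chr10:128493030-128493079, minus strand: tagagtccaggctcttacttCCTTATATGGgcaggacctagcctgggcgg
Fhl2, chr1:43163963-43164012, minus strand: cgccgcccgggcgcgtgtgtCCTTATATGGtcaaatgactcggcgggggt
Fhl2, second window, chr1:43196828-43196877, minus strand: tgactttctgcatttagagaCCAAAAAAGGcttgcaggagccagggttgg
Fhl1, chrX:56779561-56779610, plus strand: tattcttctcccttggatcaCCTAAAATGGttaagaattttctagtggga
Srf, distal box, chr17:46556215-46556264, minus strand: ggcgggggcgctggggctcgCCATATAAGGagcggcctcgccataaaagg
Srf, proximal box, chr17:46556195-46556244, minus strand: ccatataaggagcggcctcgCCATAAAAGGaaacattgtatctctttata
Acta2, 1 letter off the motif, chr19:34255428-34255477, minus strand: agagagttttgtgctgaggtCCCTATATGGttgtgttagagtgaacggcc
The box of Fhl2 lay 31 bases before the start in one window, and that of Myl9, the farthest, lay 161 bases before it. The Srf gene held 2 boxes, 82 and 62 bases before the start, and Fhl1, with a box of its own, had too few reads to be tested. A stretch within 1 letter of the motif, as in Acta2, was common. It was present in 16 of 36 members (44.4%) and in 6419 of 27025 genes (23.8%). Letters alone do not tell whether SRF binds such a stretch, so the Acta2 stretch is not shown to lack binding.

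Most of the contractile genes were higher with EA. Of the 42 members, 38 had enough reads to be tested. The EA libraries were all above the Control libraries for 33 members, where 29.9% of tested genes were so separated, and all below for Mrtfb, where 30.7% were. Of the 38, 33 rose, 1 fell and 4 did not pass an adjusted p under 0.05, in edgeR's quasi-likelihood test with Benjamini-Hochberg adjustment over 11777 genes. Over all tested genes 33.1% rose and 34.2% fell, so the members stand beside a background in which 67.2% of genes were called. The same shares stand behind the counts by role and by list below. The median log2 fold change (EA over Control) was 1.23 for the 38 tested members and -0.02 for all tested genes. A log2 fold change of 1 or more was found for 23 members that rose, where 8.99% of tested genes rose by as much, and one of 2 or more for 8 members, against 2.93% of tested genes. Tagln and Tmod1 passed the read filter through the EA libraries alone, and a gene that enters in that way tends to be higher in EA. Both are among the 33 members that rose, and Tagln is among the 8. The members were also chosen with earlier results of these data known, so their contrast with all tested genes gives no independent support. The members Cnn1, Myh11, Fhl1 and Myocd had too few reads to be tested.

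The 42 genes took 3.06, 3.02, 2.98 and 3.05% of all counted reads in the EA libraries, against 1.63, 1.57, 1.57 and 1.55% in the Control libraries. This is 3.03 ± 0.0333% in EA and 1.58 ± 0.0336% in Control (SD, n = 4 each), and the groups lay far apart. Actb, Actg1, Acta2 and Myh9 alone held 1.63 ± 0.0379% of reads in EA and 0.766 ± 0.0364% in Control. In the plot of levels by library, the 4 values of a group lay close together for all but the genes near 1 CPM.

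**Figure D1:**
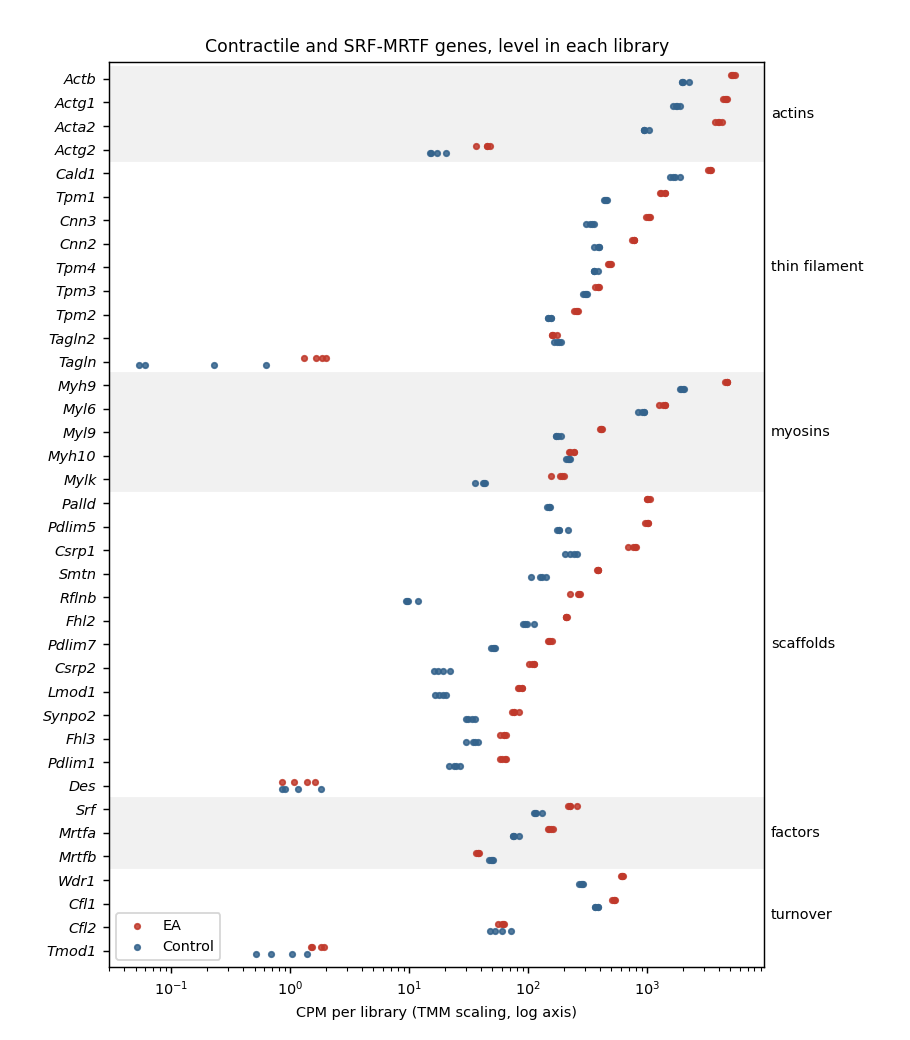
Level of the 38 tested members in each library, in CPM (read counts scaled with TMM factors to a common library size, log axis), with 4 EA and 4 Control points per gene and genes grouped by role. The EA points lie to the right of all Control points for 33 genes, to the left for Mrtfb, and among them for Tagln2, Myh10, Des and Cfl2.

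Total counts ranged from 14112519 to 17390200 reads per library. The mitochondrial share of reads was 2.32 to 2.73% in EA and 1.80 to 2.22% in Control, and the 10 most read genes took 11.5 to 11.8% in EA and 8.43 to 9.37% in Control. Both separated the groups, and their part in the members' changes was not tested. The share of calls that were higher depended on how libraries were scaled, at 49.2% with TMM factors, 34.6% with upper-quartile factors and 21.2% with library totals alone. The median change over the whole set of tested genes shifted by -0.36 (log2) with library totals and by -0.16 with upper-quartile factors, and changes below are given with TMM factors. Relative to the median of all tested genes, 36 of the 38 tested members were above it and Tagln2 and Mrtfb below it with TMM, RLE and upper-quartile factors and with library totals alike. With library totals 30 members rose and 4 fell, where 16.5% of tested genes rose and 61.1% fell. Tpm3, Tpm4 and Tmod1 then no longer passed, and Tagln2, Myh10 and Cfl2 joined Mrtfb as lower. Control library 4 stood apart on the second principal component (3.42% of the variance), at -21.3 against 1.04 to 11.8 in the other Control libraries, and without it 34 members rose and 1 fell.

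**Figure D2:**
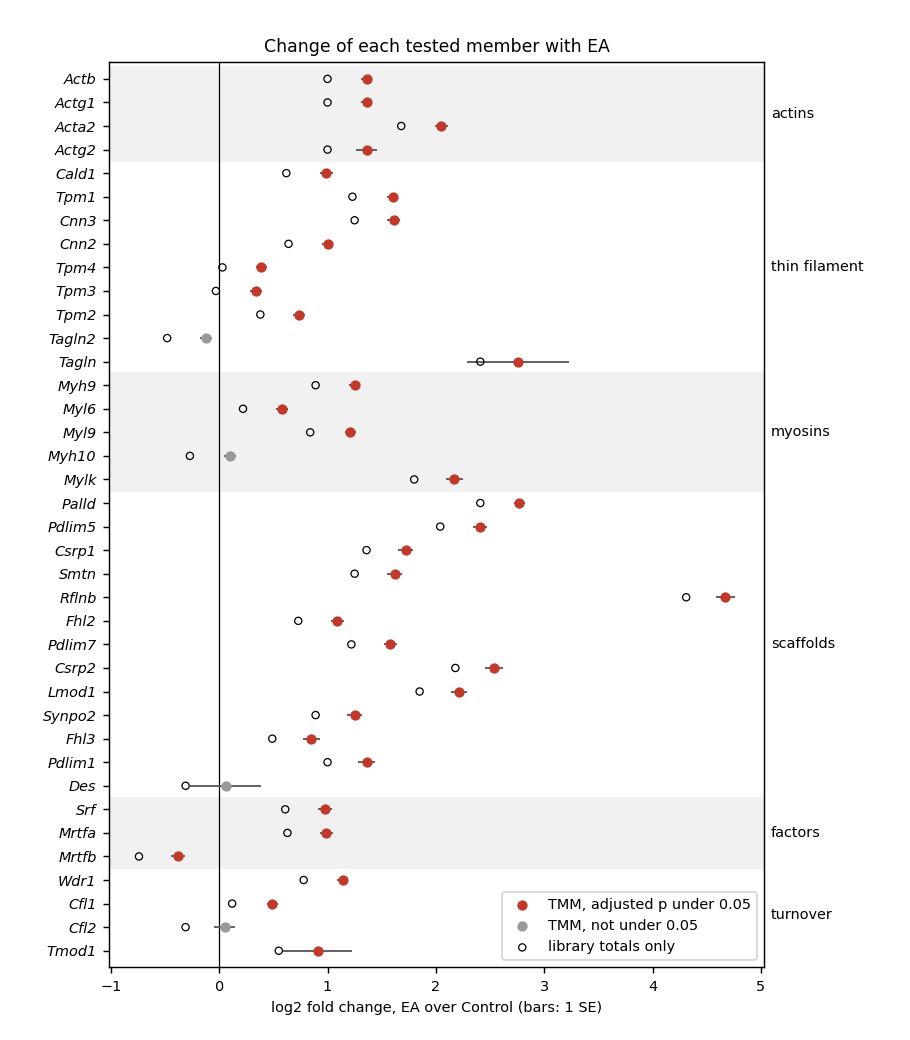
Log2 fold change (EA over Control) of each tested member, with bars of 1 SE. Filled points use TMM factors, in red where the adjusted p is under 0.05, and open circles use library totals only. All open circles lie to the left of their filled points, and Rflnb has the largest change in both.

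All 4 actin genes rose. Acta2 (chromosome 19, 34218490 to 34232990, build GRCm39, minus strand) encodes smooth muscle alpha-actin, the usual marker of myofibroblasts. Its level was 4006, 3960, 3722 and 4261 CPM in EA and 1043, 942, 940 and 937 CPM in Control. Each EA library was well above all Control libraries, with a log2 fold change of 2.05 ± 0.058 (SE, adjusted p = 3.62e-17). The SE is the size of the change divided by the square root of its F statistic, and it borrows spread from other genes.

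The cytoplasmic actins, which build the cytoskeleton of nearly every cell, rose by less than Acta2. Actb, which encodes beta-actin, had 5314, 5230, 5127 and 5450 CPM in EA and 2240, 2007, 1983 and 1971 CPM in Control. Actg1, which encodes cytoplasmic gamma-actin, had 4623, 4377, 4557 and 4705 CPM in EA and 1909, 1771, 1766 and 1667 CPM in Control. Neither gene had overlapping groups, and both are often used to normalise other measurements, with log2 fold changes here of 1.36 ± 0.055 for Actb and 1.36 ± 0.054 for Actg1 (adjusted p = 9.49e-15 and 8.35e-15). Actg2, the gamma-actin of gut smooth muscle, was far lower, at 43.7 ± 4.79 CPM in EA and 16.9 ± 2.47 CPM in Control, and rose 2.57-fold (adjusted p = 3.27e-10). Actin proteins are near-identical, and actin genes have many processed copies in the genome. How reads that fit several places were counted is not given, so the division between actin genes is uncertain.

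Levels of different genes are compared per length, in the deposited FPKM, which scales by library totals. Summed over the 4 actin genes the level was 4875 ± 150 FPKM in EA and 2136 ± 119 FPKM in Control. Acta2 made up 32.7, 33.2, 31.7 and 33.6% of it in the EA libraries, against 23.2, 23.1, 23.2 and 23.7% in the Control libraries. The groups did not overlap. Actb made up 35.6 ± 0.314% in EA and 40.6 ± 0.366% in Control, and Actg1 made up 31.1 ± 0.763% in EA and 35.5 ± 0.596% in Control. Actg2 held 0.506 ± 0.0437% in EA and 0.576 ± 0.0596% in Control, with overlapping groups. The Acta2 to Actb ratio was 0.920 in EA and 0.575 in Control, whereas the Actg1 to Actb ratio was 0.871 in EA and 0.874 in Control with overlapping groups. Such ratios within a library do not depend on how libraries are scaled.

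**Figure D3:**
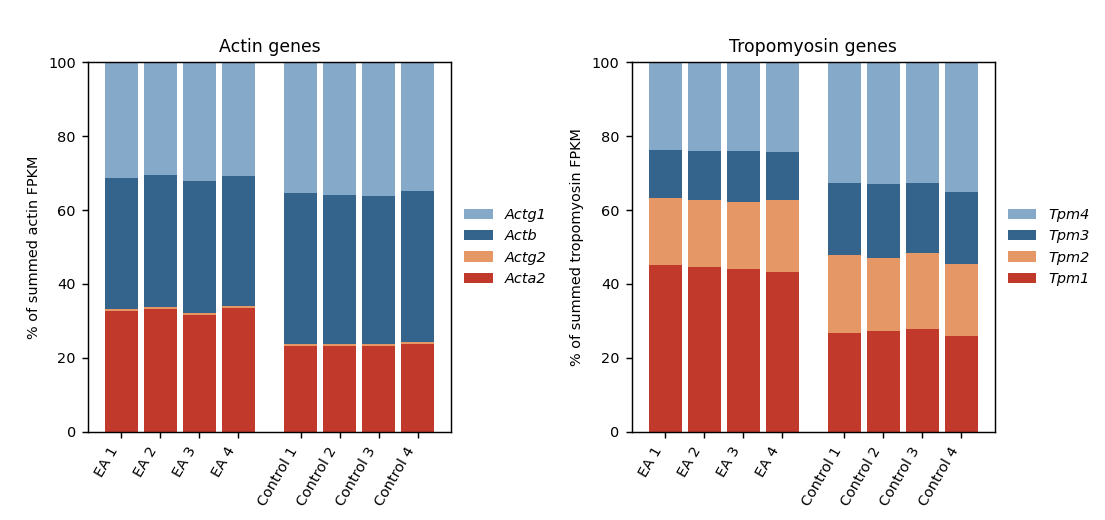
Make-up of the actin genes (left) and the tropomyosin genes (right) in each library, as the percent of the summed FPKM of the 4 genes, with EA libraries left of Control libraries. Acta2 takes 31.7 to 33.6% of actin FPKM in EA libraries, against 23.1 to 23.7% in Control libraries, and Tpm1 takes 43.3 to 45.2% of tropomyosin FPKM there, against 26.0 to 27.7% in Control libraries.

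Of the 9 tested genes for partners of the thin filament, 8 rose and Tagln2 did not pass. Tropomyosins are coiled proteins that lie along actin filaments and govern which other proteins reach them. Tpm1 had 1420, 1408, 1304 and 1293 CPM in EA and 444, 452, 462 and 438 CPM in Control, without overlap, and rose by a log2 fold change of 1.60 ± 0.053 (adjusted p = 4.16e-16). Tpm2 had 254 ± 7.90 CPM in EA and 152 ± 5.72 CPM in Control, a 1.67-fold rise. Tpm3 had 383 ± 13.5 CPM in EA and 303 ± 8.11 CPM in Control, and Tpm4 had 481 ± 12 CPM in EA and 366 ± 15.7 CPM in Control. Their rises of 1.26-fold and 1.31-fold (adjusted p = 7.71e-06 and 1.04e-06) were absent with library totals, where the log2 fold changes were -0.03 for Tpm3 and 0.03 for Tpm4.

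Within the tropomyosin family the make-up moved toward Tpm1. Its share of the summed tropomyosin FPKM was 44.3 ± 0.830% in EA and 26.9 ± 0.712% in Control. That of Tpm4 was 23.9 ± 0.314% in EA and 33.4 ± 1.19% in Control, and that of Tpm3 was 13.3 ± 0.349% in EA and 19.4 ± 0.525% in Control. Neither group of libraries overlapped the other for these 3 genes, while Tpm2 overlapped at 18.5 ± 0.648% in EA and 20.3 ± 0.852% in Control. Each tropomyosin gene makes several muscle and non-muscle isoforms, which gene counts add together, and a fixed gene length stands behind each FPKM.

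Calponins bind actin and slow the myosin motor, and Cnn1 is the form of differentiated smooth muscle. Cnn1 had 6, 9, 19 and 12 reads in the EA libraries and 1, 3, 3 and 0 reads in the Control libraries, a ratio of 8.35 with an exact 95% interval of 3.75 to 21.9 for counting error only. Of the 46 EA reads, 19 came from EA library 3. The gene was too low to be tested with the filter used and barely present in either group. The broadly expressed calponins were abundant, with Cnn3 at 1057, 1030, 1021 and 982 CPM in EA and 342, 332, 358 and 305 CPM in Control. Cnn2 had 770 ± 14 CPM in EA and 385 ± 19.4 CPM in Control. Both rose, by log2 fold changes of 1.61 ± 0.057 for Cnn3 and 1.0 ± 0.052 for Cnn2, and the Cnn2 to Cnn3 ratio per length was 0.930 in EA and 1.42 in Control, with no overlap.

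Transgelin binds actin filaments and is among the most abundant proteins of smooth muscle. Its gene Tagln had 23, 27, 20 and 23 reads in the EA libraries and 4, 1, 11 and 1 reads in the Control libraries. The EA libraries were all higher (adjusted p = 3.15e-05), but the gene passed the read filter through them alone. Its level in EA was 0.751 ± 0.132 FPKM, against 1600 ± 83.5 FPKM for Acta2 in the same libraries. The read counter and its strand setting are not given, and whether reads were lost to an overlapping gene was not tested. The broadly expressed relative Tagln2 had 161, 159, 159 and 174 CPM in EA and 181, 174, 165 and 190 CPM in Control, with overlapping groups (adjusted p = 0.0729). Tagln2 was the member whose call moved with most settings, being lower with upper-quartile factors (log2 fold change -0.28), library totals (-0.48), without EA library 4 (-0.15) and without Control library 3 (-0.15). Cald1, which encodes caldesmon, a brake on the contact of myosin with actin, had 3374 ± 75.2 CPM in EA and 1702 ± 139 CPM in Control and rose 1.98-fold (adjusted p = 5.28e-12).

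Among myosin genes 4 of 5 tested rose. The heavy chain genes Myh9 and Myh10 encode the motors of non-muscle myosin IIA and IIB, and Myh11 encodes that of smooth muscle. Myh9 had 4746, 4545, 4712 and 4693 CPM in EA and 2042, 2009, 1898 and 1915 CPM in Control and rose by a log2 fold change of 1.25 ± 0.051 (adjusted p = 1.03e-14). Myh10 had 223, 222, 243 and 243 CPM in EA and 224, 210, 221 and 217 CPM in Control, with overlapping groups and an adjusted p of 0.126. With library totals Myh10 was lower by a log2 fold change of -0.27 (adjusted p = 0.00016).

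The Myh10 to Myh9 ratio per length was 0.0615 in EA and 0.137 in Control, with no overlap. Myh9 made up 94.2 ± 0.258% of the heavy chain FPKM in EA and 87.9 ± 0.499% in Control. Myh11 had 4, 2, 2 and 4 reads in the EA libraries and 4, 2, 1 and 6 in the Control libraries, so that the smooth muscle heavy chain was close to absent in both.

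The regulatory light chain, encoded by Myl9, is the switch that myosin light chain kinase, encoded by Mylk, turns on by phosphorylation. Mylk had 184, 201, 191 and 157 CPM in EA and 42.6, 41.7, 43.5 and 35.6 CPM in Control, and rose by a log2 fold change of 2.17 ± 0.08 (adjusted p = 4.56e-15). Myl9 had 409, 408, 401 and 415 CPM in EA and 188, 179, 170 and 170 CPM in Control and rose by 1.21 ± 0.053. Both genes separated the groups completely. Myl6, which encodes the essential light chain, had 1357 ± 68.4 CPM in EA and 907 ± 48.2 CPM in Control and rose 1.5-fold, and the Myl9 to Myl6 ratio per length was 0.825 in EA and 0.534 in Control. The printed promoter stretches of Myl9 and Myl6 each hold a CArG box. Mylk, with a larger change, had a window without a box, as did Rflnb and Palld below. Boxes outside the windows were not looked for, and whether a box goes with a change was not tested for the members.

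The largest change, that of Rflnb, lay among the scaffolds that tie filaments to each other and to adhesions, of which 12 of 13 tested rose, with a median log2 fold change of 1.62. Rflnb (chromosome 11, 75910020 to 75918608, minus strand) encodes refilin B, which binds the actin cross-linker filamin. Its level was 270, 261, 273 and 225 CPM in EA and 11.8, 9.69, 9.32 and 9.65 CPM in Control, and it rose 25.5-fold (adjusted p = 5.53e-20). Counted reads were 3161 to 4204 per EA library and 161 to 205 per Control library, so the low Control level was well measured. The next largest log2 fold change among the members was 2.77, against 4.67 for Rflnb.

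Palladin, encoded by Palld (chromosome 8, 61964467 to 62355724, minus strand), organises stress fibres through the cross-linker alpha-actinin. Palld had 1028, 1049, 1001 and 1001 CPM in EA and 149, 149, 153 and 145 CPM in Control and rose by a log2 fold change of 2.77 ± 0.052 (adjusted p = 6.42e-20). Csrp2, a LIM-domain protein of smooth muscle and stress fibres, had 113, 113, 107 and 101 CPM in EA and 19.2, 17.3, 21.9 and 16.2 CPM in Control and rose 5.83-fold (adjusted p = 3.49e-16). Its broadly expressed relative Csrp1 had 766 ± 50.7 CPM in EA and 232 ± 23.5 CPM in Control and rose 3.30-fold. The Csrp2 to Csrp1 ratio per length was 0.128 in EA and 0.0721 in Control, and the groups did not overlap for any of these measures.

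The PDZ-LIM proteins dock signalling and adaptor proteins on alpha-actinin. Pdlim5 had 1003, 1024, 1014 and 955 CPM in EA and 180, 182, 176 and 216 CPM in Control and rose by a log2 fold change of 2.41 ± 0.065 (adjusted p = 1.68e-17). Pdlim7 had 152 ± 5.64 CPM in EA and 51.0 ± 1.63 CPM in Control, and Pdlim1 had 62.0 ± 3.22 CPM in EA and 24.1 ± 2.10 CPM in Control. All 3 rose, at 5.30-fold for Pdlim5, 2.99-fold for Pdlim7 and 2.57-fold for Pdlim1. Per length Pdlim5 was 3.58 times Pdlim7 in EA and 2.01 times in Control, without overlap.

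Leiomodin 1, encoded by Lmod1, seeds new actin filaments in smooth muscle. It had 83.8, 81.4, 88.6 and 89.0 CPM in EA and 19.2, 16.6, 20.2 and 17.9 CPM in Control, and rose 4.64-fold (adjusted p = 5.26e-16). Smtn, which encodes the filament-bound protein smoothelin, had 378, 389, 383 and 384 CPM in EA and 131, 125, 140 and 105 CPM in Control, a 3.06-fold rise. Both are regarded as smooth muscle genes and both were separated in all libraries. Synpo2, which encodes an actin-bundling protein of the Z-disc, had 77.5 ± 4.47 CPM in EA and 32.5 ± 2.53 CPM in Control and rose 2.39-fold.

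The four-and-a-half-LIM proteins bind integrins, filaments and transcription factors. Fhl2 had 210, 212, 207 and 210 CPM in EA and 111, 91.3, 98.6 and 93.2 CPM in Control, and Fhl3 had 62.2 ± 2.74 CPM in EA and 34.4 ± 3.39 CPM in Control. Fhl2 rose by a log2 fold change of 1.09 ± 0.062 and Fhl3 by 0.85 ± 0.076, without overlap in either. Fhl1 had 34 reads in EA and 34 in Control, of which 21 were in Control library 4, and was not tested. Des, which encodes the muscle intermediate filament protein desmin, had 17, 22, 13 and 15 reads in the EA libraries and 20, 30, 15 and 17 reads in the Control libraries, and it did not pass (adjusted p = 0.892).

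Of the transcription factors of the pathway 3 were tested, of which 2 rose and 1 fell. Srf had 226, 226, 217 and 256 CPM in EA and 130, 116, 114 and 111 CPM in Control and rose by a log2 fold change of 0.98 ± 0.065 (adjusted p = 3.80e-11). Mrtfa had 163, 149, 156 and 147 CPM in EA and 83.6, 74.4, 75.7 and 75.1 CPM in Control and rose by 0.99 ± 0.061 (adjusted p = 1.01e-11). Mrtfb, the other MRTF gene, was the only tested member to fall, with 37.9, 38.7, 36.3 and 37.9 CPM in EA and 50.7, 48.6, 49.8 and 47.1 CPM in Control.

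The fall of Mrtfb was by 0.38 ± 0.066 on the log2 scale (adjusted p = 3.63e-05), and its direction held with every scaling tried. The Mrtfb to Mrtfa ratio per length was 0.175 in EA and 0.454 in Control, with the 4 libraries of each group well apart. Myocd, which encodes myocardin, had 3 reads in EA library 3 and none in the other 7 libraries, which is at the floor of 3 counts and gives no fold. MRTF proteins are governed mainly by where they are in the cell, which RNA levels do not measure.

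Cofilins cut and unmake old filaments, and Wdr1 encodes the protein that helps them to do so. Wdr1 had 619, 601, 633 and 616 CPM in EA and 288, 276, 284 and 270 CPM in Control and rose by a log2 fold change of 1.14 ± 0.05 (adjusted p = 3.65e-14). Cfl1, the cofilin of most cells, had 526 ± 15.2 CPM in EA and 376 ± 10.8 CPM in Control and rose 1.40-fold (adjusted p = 3.53e-08). Both log2 fold changes were below those of the 4 actin genes, a difference that was not tested. Cfl2, the muscle cofilin, had 59.7, 62.8, 55.9 and 61.0 CPM in EA and 47.7, 59.9, 52.3 and 71.3 CPM in Control, with overlapping groups and an adjusted p of 0.674, and it passed as higher without Control library 4 (log2 fold change 0.17) but as lower with library totals (-0.31). Tmod1, a cap of filament ends, had 19 to 28 reads per EA library and 9 to 23 per Control library and rose 1.88-fold (adjusted p = 0.0161), but not past the threshold with library totals or without Control library 3 (log2 fold change 0.72).

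Of 18 family pairs with enough reads for a ratio, 7 were higher in every EA library, 5 were lower in every EA library and 6 had overlapping groups. The widest of those resting on well-counted genes were Mrtfb to Mrtfa, with a log2 difference (EA minus Control) of -1.37, Tpm1 to Tpm3 with 1.26 and Myh10 to Myh9 with -1.16. The ratios that overlapped were those of Actg2 to Actb, Actg1 to Actb, Tpm4 to Tpm3, Myh11 to Myh9, Pdlim1 to Pdlim7 and Fhl1 to Fhl2. Separation was common in these data, as 29.9% of single tested genes were higher in every EA library and 30.7% lower. No such share was computed for ratios of other gene pairs. Per length, Actb was the most expressed member in both groups, at 1737 ± 39.4 FPKM in EA and 867 ± 52.1 FPKM in Control. It was followed in EA by Acta2 at 1600 ± 83.5 and Actg1 at 1514 ± 43.6 FPKM, and in Control by Actg1 at 758 ± 42.4 and Acta2 at 498 ± 25.5 FPKM. Acta2 and Actg1 differ in EA by less than the sum of their SDs. Rflnb stood at rank 21 of 42 in EA and at rank 34 in Control, with 64.6 ± 5.77 FPKM in EA and 3.26 ± 0.350 FPKM in Control.

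**Figure D4:**
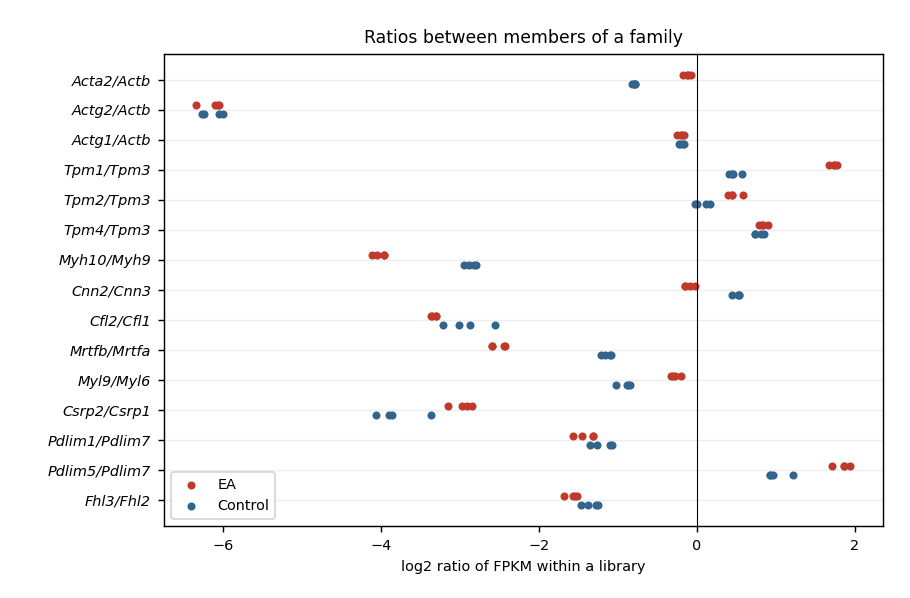
Log2 ratio of the FPKM of 2 members of a family within each library, with 4 EA and 4 Control points per pair, for the 15 pairs whose genes all had ample reads. EA points lie to the left of Control points for Mrtfb/Mrtfa and Myh10/Myh9 and to the right for Tpm1/Tpm3 and Acta2/Actb, while those of Actg1/Actb overlap.

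Other genes of the pathway were described from lists of named genes. These lists were chosen with earlier results of these data known, so they give no independent support. Of 16 tested SRF-MRTF targets outside the 42 genes, 14 rose and 2 fell, and the median change was 1.13 (log2). Vcl, which encodes the adhesion protein vinculin, had 980 ± 17.6 CPM in EA and 208 ± 10.8 CPM in Control and rose 4.71-fold, and Lima1, an actin cross-linker gene, rose 3.32-fold. The falling genes were Ankrd1, 1.36-fold lower, and Filip1l, which fell by 0.25 on the log2 scale with an adjusted p of 0.0365 and no longer passed with DESeq2 (adjusted p = 0.0641) or without EA library 4, Control library 1 or Control library 4. SRF also acts with ternary complex factors, and of 12 tested genes of that branch 8 rose and 4 did not pass, the median being 0.94. Egr3 rose 8.78-fold and Fosb 8.67-fold, both early response genes. The early response genes Egr1, Fos and Ier2 did not pass (adjusted p = 0.872, 0.421 and 0.385) and differed within the EA group. Egr1 had 167, 208, 39.6 and 48.2 CPM in EA and 140, 86.8, 94.5 and 103 CPM in Control, and Fos had 38.6, 42.3, 12 and 14.7 CPM in EA and 26.2, 15.8, 17.7 and 17.7 CPM in Control. For all 3 genes, EA libraries 1 and 2 were above every Control library and EA libraries 3 and 4 were below most or all of them.

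**Figure D5:**
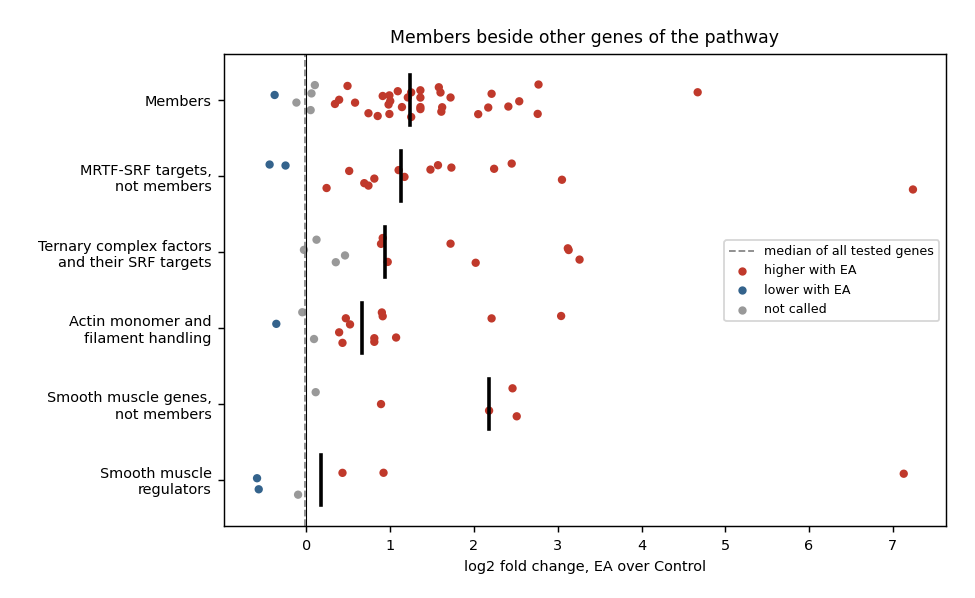
Log2 fold change (EA over Control) of the tested members and of 5 lists of other pathway genes, with 1 point per gene, red where higher, blue where lower and grey where not called, and a black bar at each list's median. The median of the members is at 1.23, and the dashed line at -0.02 is the median of all tested genes.

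The genes that handle actin monomers and filament ends rose in 11 of 14 tested cases and fell in 1, with a median of 0.66. Mical2, whose product oxidises actin in the nucleus, had 532 ± 25.0 CPM in EA and 64.7 ± 7.34 CPM in Control and rose 8.23-fold, and the monomer-binding profilin gene Pfn1 rose 1.87-fold, while Pfn2 was 1.29-fold lower.

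Of 12 smooth muscle genes outside the 42, 5 had enough reads to be tested, of which 4 rose and none fell. Jph2, which joins calcium stores to the cell surface, rose 5.50-fold to 313 ± 18.1 CPM in EA, against 56.9 ± 1.27 CPM in Control. Ppp1r14a and Pcp4 had no read in any library. Of 6 tested regulators of smooth muscle genes 3 rose and 2 fell, where 33.1% of all tested genes rose and 34.2% fell. Klf4, a repressor of smooth muscle genes, rose 1.90-fold, Nfatc2, a calcium-regulated factor, had 60.7 ± 8.71 CPM in EA and 0.415 ± 0.291 CPM in Control, and Prrx1 and Foxo4 were 1.51-fold and 1.49-fold lower. Nfatc2 passed the read filter through the EA libraries alone, with 30 reads in all in Control, as Tagln and Tmod1 did.

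Markers of cell types that share contractile genes moved in part with these results. Of 7 pericyte and vascular smooth muscle markers 4 were tested, of which 3 rose and 1 fell, and their summed level was 1352 to 1413 CPM in EA and 361 to 419 CPM in Control. Cspg4 and Pdgfrb made up most of it, at 859 ± 15.7 and 520 ± 19.6 CPM in EA and 182 ± 18.1 and 190 ± 11.3 CPM in Control. Pdgfrb is also on the list of mesenchymal stromal cell markers. Mcam rose as well, at 11 ± 1.22 CPM in EA and 3.53 ± 0.764 CPM in Control. Notch3, the marker that fell, had 2.11 ± 0.389 CPM in EA and 3.85 ± 0.428 CPM in Control (adjusted p = 0.000972). Kcnj8 had no read, and Rgs5 had 17 reads in EA, of which 13 were in EA library 3, and 7 in Control. Summed skeletal and heart muscle markers were at 8.91 to 15.9 CPM in EA and 3.63 to 4.33 CPM in Control, with 4 of 14 tested, and Myh2 and Myod1 had no read. The higher ones were Acta1 and Tnnt1, of which Tnnt1, with 153 reads in EA and 16 in Control, passed the read filter through the EA libraries alone. Their part in the results was not tested, and in bulk RNA more cells of a type and more RNA per cell cannot be told apart.

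Endothelial markers summed to 1.10 to 1.42 CPM in EA and 1.30 to 2.12 CPM in Control, with none of 6 tested. Blood cell markers summed to 59.2 to 63.7 CPM in EA and 59.7 to 74.8 CPM in Control, nearly all of it in Lyz2 and Cd14. These moved in opposite directions, Lyz2 being 1.49-fold higher at 51 ± 1.29 CPM in EA and 34.3 ± 4.14 CPM in Control (adjusted p = 3.28e-06), and Cd14 3.53-fold lower at 9.65 ± 0.739 CPM in EA and 34 ± 3.20 CPM in Control (adjusted p = 1.66e-12). Ptprc, carried by most blood cells, had 17 reads in EA and 16 in Control. Adipocyte markers summed to 5.89 to 10.2 CPM in EA and 3.39 to 6.93 CPM in Control, with both tested genes of 5 higher, Fabp4 1.61-fold and Lpl 1.83-fold, neither of which passed with library totals. The groups overlapped for Lpl, which also lost its call without EA library 3 (log2 fold change 0.61) or Control library 3 (0.72). Of 11 markers of the labelled mesenchymal stromal cells 10 were tested, of which 5 rose and 2 fell. Over all tested genes 33.1% rose and 34.2% fell. Itgb1 and Cxcl12 were abundant, at 1327 ± 17.6 and 646 ± 33.8 CPM in EA and 898 ± 30.6 and 604 ± 90.8 CPM in Control. Itgb1 rose 1.48-fold and Cxcl12 did not pass (adjusted p = 0.342). Cd44 was abundant as well, at 467 ± 14.2 CPM in EA and 506 ± 35.9 CPM in Control, and did not pass (adjusted p = 0.0738). Pdgfra rose most, 4.59-fold, with 632 ± 15 CPM in EA and 138 ± 25.3 CPM in Control. The markers that fell were Ly6a, 2.82-fold lower at 11.8 ± 1.33 CPM in EA and 33.3 ± 4.79 CPM in Control, and Vcam1, 1.49-fold lower at 207 ± 13.6 CPM in EA and 308 ± 39.8 CPM in Control. Thy1, a defining surface marker, had 7 reads in EA and 12 in Control. Other markers were low as well. Nt5e had 6.27 ± 0.623 CPM in EA and 4.39 ± 1.63 CPM in Control, and Eng had 3.53 ± 0.607 and 2.16 ± 0.577 CPM. Both are among the 5 that rose, with overlapping groups. Lepr had 1.28 ± 0.729 CPM in EA and 0.824 ± 0.128 CPM in Control and did not pass (adjusted p = 0.16).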

How the data were processed

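Per the submitters' processing notes, cutadapt 1.15, HISAT2 2.0.5 and mouse build GRCm39 were used. Which program counted the reads, with which annotation and strand setting, is not given in the sources used here, so overlapping genes cannot be told apart. The authors deposited read counts per gene and FPKM values for 8 libraries. The deposited FPKM equal count over gene length and column total, with a largest relative deviation of 3.56e-14.

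The deposited counts went into edgeR 4.0.16 under R 4.3.3 (TMM factors, default filter by group, minimum count 10, robust quasi-likelihood F test, no covariates), on all genes, with Benjamini-Hochberg adjustment over 11777 tested genes and a threshold of 0.05. CPM use TMM scaling. The members and lists were chosen with earlier results of these data known. Of each pathway list, up to 2 rising and 2 falling genes by p were named, and of each marker list the 2 with the highest FPKM, with other markers and the early response genes that did not pass added after their values were seen. No list was tested as a whole, and 1 of the pathway lists is not reported here. The fit was tested on simulated data of 11710 genes with 200 changed. Recovery was 86.7% for changes of 1.5-fold, 95.9% for 2-fold and 100% for 4-fold. With so few changed genes, the simulation cannot show how the fit or its scaling behaves when most genes are called, as here.

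The result was recomputed with RLE factors, upper-quartile factors and library totals, with other filters, DESeq2 1.42.0, limma 3.58.1 (voom, and log2 FPKM with pseudocounts of 1 and 0.1), a threshold of 0.01, a replicate block and each library left out. Intervals cover counting error only. Promoter windows are from RefSeq, and their coordinates are on GRCm38.p6 while gene coordinates are on GRCm39.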

Additional observations from a re-analysis of the deposited data

Results flagged for a closer look

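In a group of 4 libraries, a library was marked when it stood apart from the other 3 by Dixon's test at the 95% level. This happened in 11 of 144 groups checked, and chance marks about 1 in 20. Control library 1 was high for Acta2 (1043 CPM, against 937 to 942 in the others), Actb (2240, against 1971 to 2007), Mrtfa (83.6, against 74.4 to 75.7) and Rflnb (11.8, against 9.32 to 9.69). Control library 4 was high for Tpm4 (390 CPM, against 356 to 360) and Pdlim5 (216, against 176 to 182) and low for Lyz2 (28.1, against 36.0 to 37.0). EA library 4 was high for Tagln2 (174 CPM, against 159 to 161) and low for Filip1l (22.1, against 29.2 in the others) and Mical2 (495, against 542 to 550). EA library 3 held all reads of Myocd (0.195 CPM, against 0).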

How the results depend on the processing

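Member calls were the same 33 higher and 1 lower with RLE factors, limma voom and the replicate block. DESeq2 and no filter added Cnn1 as higher. Library totals gave 1940 genes higher and 7196 lower, and limma gave 1924 and 7170 on log2(FPKM + 1) and 1922 and 7179 with a pseudocount of 0.1. Members called lower numbered 4 in these 3 settings, 2 with upper-quartile factors, 2 with CPM above 1 in all 8 libraries, and 1 to 2 on leaving out a library. The members' median log2 fold change was 1.07 with upper-quartile factors, 0.87 with library totals, 0.74 and 0.86 with FPKM. Under library totals, FPKM + 1 and FPKM + 0.1 the log2 fold change was -0.03 in each for Tpm3, -0.27, -0.26 and -0.27 for Myh10, -0.31, -0.28 and -0.29 for Cfl2, and -0.27, -0.25 and -0.26 for Cxcl12. The median of all tested genes moved the same way, and the cause was not tested. The share of reads differed by 1.5 points outside the mitochondrial genome, against 1.45. Same-numbered libraries did not deviate together (correlations 0.0265, 0.0233, 0.0266 and -0.0215), so the fit with the replicate block, with 3834 genes higher and 3960 lower, has no pairing behind it, and no EA library correlated best with the Control library of its own number. It left Filip1l past the threshold no longer (adjusted p = 0.0673). Members with under 20 reads per library are limited by depth.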

Other observations

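Genes outside the 42 that also hold a CArG box in a promoter window were set beside the rest. Of 144 such tested genes 65 were higher in EA (45.1%) and 42 lower (29.2%), the median change being 0.14 (log2). Of 9227 tested genes with a window but no box, 2990 rose (32.4%) and 3205 fell (34.7%), with a median of -0.03. This comparison was added after the members' values were seen and carries no test.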
